A study of Mus musculus with 4 samples.

Results

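The 38 genes described here encode the core proteins of proteoglycans, the enzymes that build and edit heparan sulfate, and the hyaluronan synthases. They were taken by gene symbol from the deposited expression table, and all 38 had a row among its 23361 genes. The table holds bulk RNA-seq of sorted Nfatc1+ (2 libraries) and Shh+ (2 libraries) hair peg cells, all from mouse embryonic back skin at E17.5. The hair peg is the stage of follicle growth at which an epithelial column extends into the dermis. Nfatc1+ cells came from embryos with Nfatc1-CreER, Rosa-stop-tdTomato and K14-H2BGFP, and Shh+ cells came from embryos with Shh-CreER and the same 2 reporter alleles. Both groups received tamoxifen through the mother, in 1 dose at E15.5, so tdTomato marked the cells in which the Nfatc1 or Shh driver was then active, and their progeny. Nuclear GFP from the keratin 14 promoter marked epithelium, and cells positive for both colours were sorted. The release of the cells from the skin differed between the groups. Skin kept whole was treated with 0.25% trypsin for 16 min at 37 °C to obtain Nfatc1+ cells. To obtain Shh+ cells, the epidermis was stripped off after 1 h in dispase (0.4 mg/ml, 37 °C), and the dermis, with its hair pegs, then spent 10 min in trypsin. The stripped epidermis held placodes and hair germs, which the whole skin kept. Population, digestion and the tissue digested therefore cannot be told apart in any difference given here. No source used here states that the libraries of a group are separate animals or litters, so p-values here reflect library-to-library spread alone, possibly technical.

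A proteoglycan is a core protein with long sulfated sugar chains, either heparan sulfate or chondroitin and dermatan sulfate. Chains of heparan sulfate are polymerized in the Golgi, sulfated there by several families of transferases and trimmed at the cell surface by endosulfatases, and the pattern of sulfate groups decides which growth factors they hold. Glypicans, anchored to the membrane by a lipid, and syndecans, which span the membrane, carry these chains on epithelial cells, where they are known as co-receptors or regulators of Wnt, Hedgehog, BMP and FGF signals. Hyaluronan is a related chain made without a core protein, at the plasma membrane, and it fills the space between keratinocytes and dermal cells.

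Expression is given as FPKM (fragments per transcript length and per mapped fragments), a scale on which genes of different length can be set side by side. The test was limma on log2(FPKM + 0.5), run for the 12750 genes that averaged 0.5 FPKM or more across the 4 libraries. A gene was called at a Benjamini-Hochberg adjusted p under 0.05 over all of them. Each log2 fold change is Nfatc1+ minus Shh+ after adding 0.5 FPKM, so that of a low gene is understated, and each fold is a ratio of mean FPKM. Absolute depth is unknown. Relative depth, read from the FPKM value of a single fragment among low genes, was 1 and 0.927 in the Nfatc1+ libraries and 0.927 and 0.575 in the Shh+ libraries, so Shh+ replicate 2 gives low genes the least precision. The gene of each driver was higher in its own population. Nfatc1 was at 112 and 116 FPKM in the Nfatc1+ libraries, against 25.3 and 20.1 FPKM in the Shh+ libraries, and Shh was at 10.5 and 11.7 FPKM in the Nfatc1+ libraries, against 143.9 and 144.7 FPKM in the Shh+ libraries. The epithelial label fitted the markers: Krt5, Krt14 and Krt17 lay between 1029.98 and 4323.03 FPKM in every library. The summed level of 12 dermal fibroblast markers was nevertheless 299 to 560 FPKM in Nfatc1+ libraries, against 217 to 264 FPKM in Shh+ libraries. Fibroblast, Merkel, melanocyte and blood cell markers are given below beside the members those cells are known to make. Of 21 immediate early and stress genes, 11 were higher in Nfatc1+ and none in Shh+ cells, with a summed level of 4336 to 4676 FPKM in Nfatc1+ libraries, against 2933 to 3241 FPKM in Shh+ libraries, and their part in the results was not tested.

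Of the 38 genes, 34 passed the filter on low values, and 18 of those were called. Nfatc1+ cells were higher in 11 of them, where 16.6% of all tested genes were called in that direction. Shh+ cells were higher in 7, where 14.9% of all tested genes were called that way. Called genes with at least a 2-fold difference numbered 7 higher in Nfatc1+ cells (Bcan, Has2, Prelp, Gpc6, Sdc3, Vcan and Bgn) and 6 higher in Shh+ cells (Has3, Dcn, Hs6st2, Gpc2, Gpc3 and Gpc1), against 6.83% and 5.98% of all tested genes. Among the called genes at least 2-fold apart, Bcan, Has2, Gpc6 and Hs6st2 averaged under 0.5 FPKM in the lower group. They passed the filter on low values only through the group where they were high. For 27 of the 34 the groups stood apart without overlap, against 70.7% of all tested genes. The median absolute log2 fold change was 0.54 over the 34 and 0.24 over all tested genes, and the median signed values were 0.17 and −0.0018. The other 4 genes, Gpc5, Acan, Ncan and Has1, were at 0.155 FPKM or less in every library and were not tested. Called genes lay on both sides in 3 families, the small leucine-rich proteoglycans, the glypicans and the hyaluronan synthases, as the plot of fold changes shows. Leaving out single libraries, with the remaining library of that group taken to vary like those of the other group, gave 8 or 9 genes higher in Nfatc1+ cells and 7 to 9 higher in Shh+ cells.

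**Figure D1:**
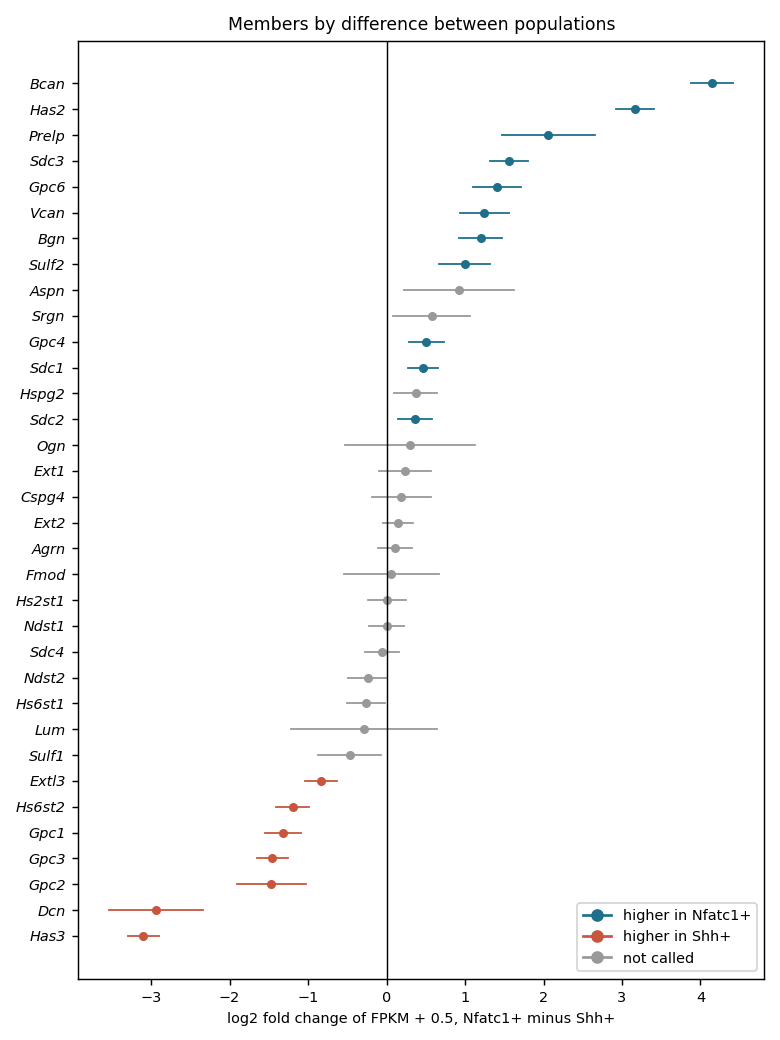
Log2 fold change of FPKM + 0.5, Nfatc1+ minus Shh+, of the 34 tested genes in order of size. Points are limma estimates from 2 libraries a group and lines their 95% confidence intervals. Bcan at 4.15 and Has3 at −3.10 lie at the ends, and the sulfotransferases Ndst1 and Hs2st1 lie at 0.

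**Figure D2:**
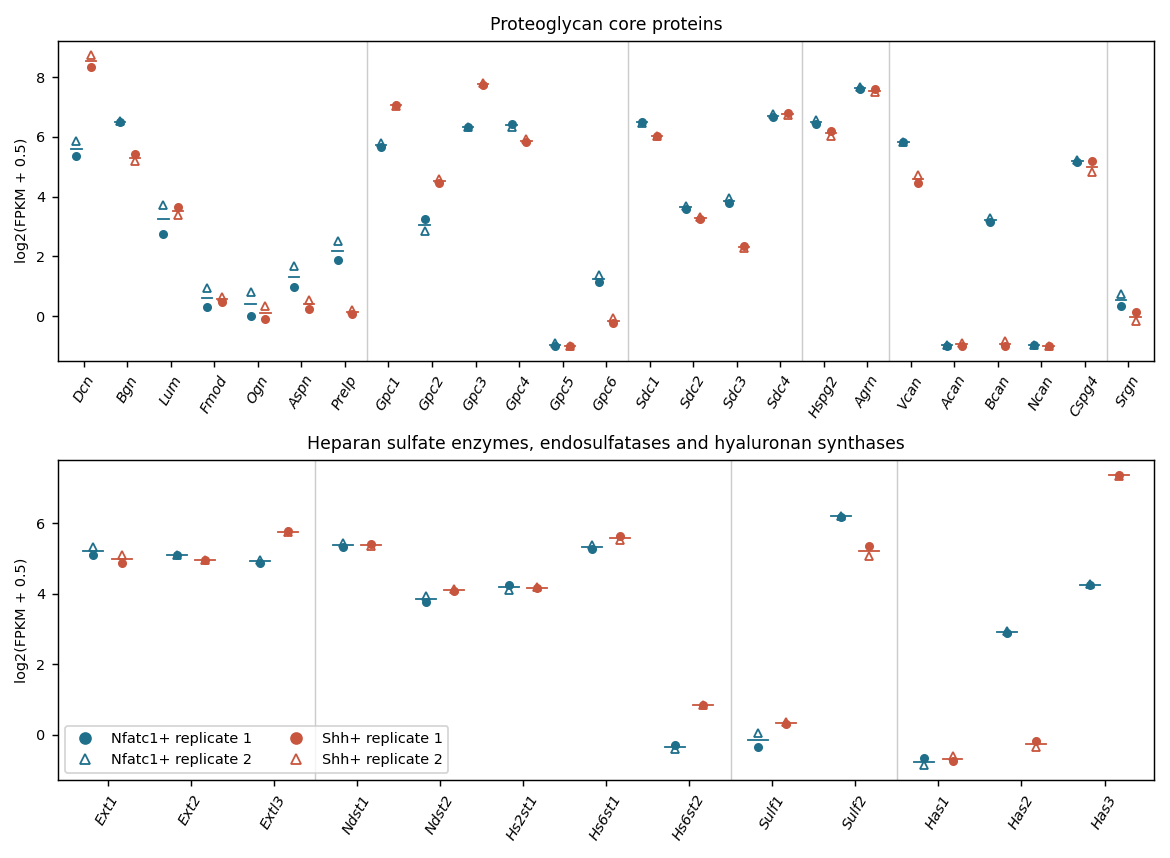
Log2(FPKM + 0.5) of each of the 38 genes, with Nfatc1+ libraries left of Shh+ libraries for each gene, a symbol for each library and a short line at the group mean. Upper panel, core proteins by family; lower panel, chain enzymes and hyaluronan synthases. Agrn and Sdc4 are high in all 4 libraries, and Gpc5, Acan and Ncan are near 0 FPKM in all 4.

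The sequence just before the transcription start is shown for 1 gene higher in Shh+ cells, Gpc3, and 2 genes higher in Nfatc1+ cells, Bgn and Sdc3. They were picked after the values were seen, from the members at least 2-fold apart whose window holds no annotated exon, to let promoters of genes that moved in opposite directions be read side by side. Each is 250 bases before the RefSeq start on GRCm38.p6, 5′ to 3′ on the gene's strand, at chrX:52613975-52614224 for Gpc3 (minus strand), chrX:73483351-73483600 for Bgn (plus strand) and chr4:130792287-130792536 for Sdc3 (plus strand). Capitals mark the GC box, GGGCGG or its complement CCGCCC, and in Bgn also the TCF/LEF core CTTTGA, which starts at position −146 from the transcription start.
Gpc3: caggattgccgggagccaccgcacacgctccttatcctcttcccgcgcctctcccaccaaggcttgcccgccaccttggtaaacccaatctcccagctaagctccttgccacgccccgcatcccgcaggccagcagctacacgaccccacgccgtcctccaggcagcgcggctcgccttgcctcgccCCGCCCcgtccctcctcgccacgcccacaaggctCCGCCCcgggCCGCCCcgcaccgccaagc
Bgn: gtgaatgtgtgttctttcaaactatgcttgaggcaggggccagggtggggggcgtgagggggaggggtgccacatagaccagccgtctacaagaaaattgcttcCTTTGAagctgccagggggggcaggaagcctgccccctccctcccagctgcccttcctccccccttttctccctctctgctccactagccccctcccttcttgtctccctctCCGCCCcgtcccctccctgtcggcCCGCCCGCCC
Sdc3: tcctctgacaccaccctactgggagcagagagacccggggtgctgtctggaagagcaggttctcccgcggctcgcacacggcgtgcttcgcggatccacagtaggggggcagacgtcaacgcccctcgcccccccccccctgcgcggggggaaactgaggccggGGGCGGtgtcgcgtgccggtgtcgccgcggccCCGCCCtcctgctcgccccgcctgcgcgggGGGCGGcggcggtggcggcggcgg
Each of these windows holds 3 GC boxes, 2 of which overlap at the end of the Bgn window, and none holds a TATA box (TATAAA) or an AP-1 site (TGANTCA). C and G make up 71.6% of the Gpc3 window, 64.4% of the Bgn window and 76.4% of the Sdc3 window. Windows of this length were found for 27 of the 38 genes. Several of them lie inside or reach into the annotated gene, as for Prelp, Bcan and Vcan. Several also hold annotated exons of the gene, as for Gpc2 and Sdc1. The counts below are therefore of windows as found and not of upstream sequence alone. With both strands searched, the GC box was in 19 of these 27 windows and in 32.9% of 27025 windows of all genes. The TCF/LEF core was in 2 of the 27, Bgn and Ncan, and in 14.0% of all windows. TATAAA was in 7 of the 27 and in 3504 of the 27025, CCAAT in 12 of the 27 and in 34.5% of all, and TGANTCA in none of the 27 and in 6.87% of all. No selection by gene type or expression was made among the windows of all genes, so these may differ from the members in kind. All counts are matches of letters only.

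Small leucine-rich proteoglycans are short horseshoe-shaped cores that coat collagen fibrils, and decorin and biglycan, the pair most alike, carry chondroitin or dermatan sulfate and are known to bind TGF-β. In these cells the pair differed in opposite directions. Dcn (decorin, chromosome 10 of GRCm38.p6 from 97479500 to 97518163) was at 40.3 and 57.7 FPKM in the Nfatc1+ libraries, against 326 and 425 FPKM in the Shh+ libraries. Both Shh+ libraries lay far above both Nfatc1+ libraries, a 7.67-fold difference (log2 fold change −2.94, SE 0.22, limma adjusted p = 0.00183). Bgn (biglycan, chromosome X from 73483601 to 73495936) was at 89.0 and 91.4 FPKM in the Nfatc1+ libraries, against 42.0 and 36.2 FPKM in the Shh+ libraries. Here the Nfatc1+ libraries were the high ones, by 2.31-fold (log2 fold change 1.20, SE 0.10, adjusted p = 0.0024). Decorin thus made up 31.0% ± 3.50 of the summed FPKM of the 7 genes in Nfatc1+ cells and 87.4% ± 3.08 in Shh+ cells (SD, n = 2), while biglycan made up 58.0% ± 7.004 in Nfatc1+ cells and 9.30% ± 2.37 in Shh+ cells.

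Prelp, a family member with a basic, heparin-binding end found near basement membranes (chromosome 1 from 133910304 to 133930102), was at 3.20 and 5.15 FPKM in the Nfatc1+ libraries, against 0.54 and 0.65 FPKM in the Shh+ libraries. The groups stood apart by 7.01-fold (log2 fold change 2.06, SE 0.22, adjusted p = 0.00436). Aspn, which encodes asporin, was at 1.45 and 2.67 FPKM in the Nfatc1+ libraries, against 0.68 and 0.96 FPKM in the Shh+ libraries. It was not called (adjusted p = 0.0603), but was without Nfatc1+ replicate 1 (0.0207), with a mean-variance trend in the fit (0.0361) and with a replicate block (0.0150). Lum (lumican), a keratan sulfate carrier in cornea, was at 6.20 and 12.8 FPKM in the Nfatc1+ libraries, against 12.1 and 10.0 FPKM in the Shh+ libraries. Its groups overlapped and it was not called (log2 fold change −0.29, adjusted p = 0.573). Without Nfatc1+ replicate 2 it was called, at a log2 fold change of −0.78 (adjusted p = 0.0493), and without Nfatc1+ replicate 1 the sign turned (0.21, adjusted p = 0.431). Fmod and Ogn, which encode fibromodulin and osteoglycin, lay between 0.43 and 1.41 FPKM in the 4 libraries with overlapping groups. Fmod and Prelp are neighbours on chromosome 1 (107.2 kb apart), and Dcn and Lum on chromosome 10 (47.3 kb apart), with no coding gene between the members of a pair. In each pair 1 gene was called and the other was not.

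Small leucine-rich proteoglycans are best known as products of dermal fibroblasts, so the fibroblast markers belong beside them, as in the plot that sets the families next to each other. Of 11 such markers tested, 2 (Thy1 and Loxl1) were higher in Nfatc1+ cells, none was higher in Shh+ cells and 9 were not called. Of all tested genes, 16.6% and 14.9% were called in these directions, so the counts lie near what any list of this size would give. Col1a1 was at 77.9 and 165 FPKM in the Nfatc1+ libraries, against 71.6 and 52.7 FPKM in the Shh+ libraries. Col1a1, Col1a2 and Col3a1 differed widely between the Nfatc1+ libraries, which limits what their missing calls show beside the call of Dcn. Of the dermal papilla or condensate markers, another mesenchymal list, 5 of 9 were tested, and their summed level was 11.005 to 15.8 FPKM in Nfatc1+ libraries, against 15.7 to 20.3 FPKM in Shh+ libraries. Alpl and Crabp1 were called higher in Shh+ cells together with Dcn. Alpl was at 0.11 and 0.20 FPKM in the Nfatc1+ libraries, against 1.93 and 1.21 FPKM in the Shh+ libraries (adjusted p = 0.00581). It passed the filter on low values only through the Shh+ libraries. Crabp1 was at 3.55 and 5.89 FPKM in the Nfatc1+ libraries, against 15.4 and 11.6 FPKM in the Shh+ libraries (adjusted p = 0.0191). Sox2, also a Merkel cell marker, was called higher in Nfatc1+ cells. Sox18 and Enpp2 were tested and not called, and Corin, Fgf7, Fgf10 and Rspo3 were too low to be tested. Within the Nfatc1+ pair, replicate 2 exceeded replicate 1 for all 7 proteoglycans and all 12 fibroblast markers, with medians of 0.63 and 0.74 log2 units. In the Shh+ pair, 5 of 7 and 2 of 12 were. The part of fibroblast or dermal papilla RNA in the values of Dcn, Bgn, Prelp, Aspn and the others was not tested, and in bulk samples fewer cells of a type and less RNA per cell cannot be told apart.

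**Figure D3:**
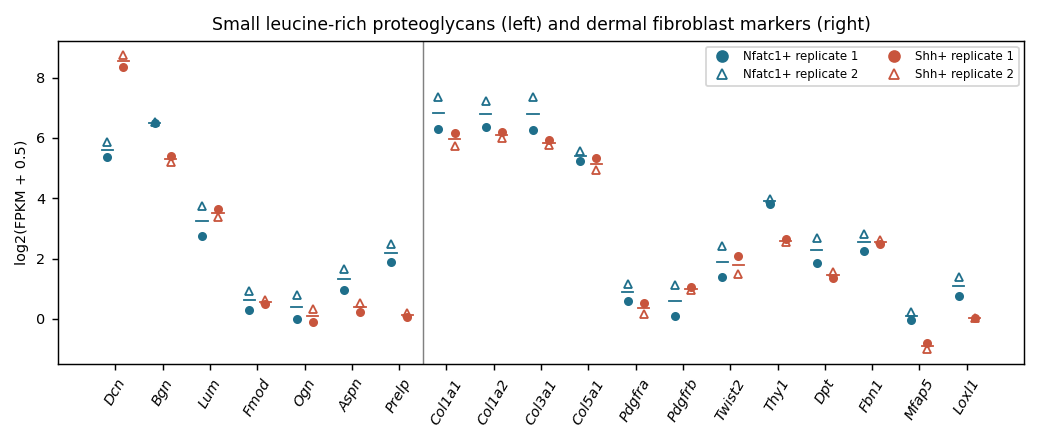
Log2(FPKM + 0.5) of the 7 small leucine-rich proteoglycans (left of the grey line) and 12 dermal fibroblast markers (right), with Nfatc1+ libraries left of Shh+ libraries, a symbol for each library and a line at the group mean. Dcn is far higher in both Shh+ libraries. Col1a1, Col1a2 and Col3a1 differ widely between the Nfatc1+ libraries. All 19 genes are higher in Nfatc1+ replicate 2 (open triangles) than in Nfatc1+ replicate 1 (filled circles).

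Glypicans, the lipid-anchored heparan sulfate carriers, differed in level and in order between the populations. Summed over the family, they were at 225 ± 1.04 FPKM in Nfatc1+ cells, against 433 ± 6.89 FPKM in Shh+ cells (SD, n = 2). All 5 tested glypicans were called, 2 higher in Nfatc1+ cells and 3 higher in Shh+ cells. Of all tested genes, 31.4% were called in either direction. Gpc3, known as a restraint on Hedgehog signals in the mouse embryo (chromosome X from 52272426 to 52613974), was at 79.2 and 79.8 FPKM in the Nfatc1+ libraries, against 215 and 223 FPKM in the Shh+ libraries. It was 2.75-fold higher in Shh+ cells, where both libraries lay above both Nfatc1+ libraries (log2 fold change −1.46, SE 0.07, adjusted p = 0.000775). Gpc1 (chromosome 1 from 92831645 to 92860211) was at 50.6 and 55.4 FPKM in the Nfatc1+ libraries, against 134.9 and 130.7 FPKM in the Shh+ libraries. That was 2.51-fold higher in Shh+ cells, again with no overlap (log2 fold change −1.32, SE 0.09, adjusted p = 0.00126). Gpc2 (chromosome 5 from 138273657 to 138280026), best known from developing neurons, was at 9.07 and 6.63 FPKM in the Nfatc1+ libraries, against 21.3 and 23.4 FPKM in the Shh+ libraries. It was 2.85-fold higher in Shh+ cells (log2 fold change −1.47, SE 0.16, adjusted p = 0.00492), but 55.6% of its exonic bases are shared with another gene model on the same strand, Gm43720, so the value is uncertain. For Gpc1, 18.9% of the exonic bases overlap Ankmy1 on the other strand, which was at 0.181 FPKM or less in every library.

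Gpc4 (chromosome X from 52051007 to 52164923), a co-receptor for Wnt and FGF ligands, went the other way. It was at 85.5 and 80.6 FPKM in the Nfatc1+ libraries, against 56.4 and 60.2 FPKM in the Shh+ libraries, which is 1.42-fold (log2 fold change 0.51, SE 0.08, adjusted p = 0.0142). With 1 library left out the difference stayed between 0.46 and 0.55 on the log2 scale, but the call was lost without Nfatc1+ replicate 1 (adjusted p = 0.0773), Nfatc1+ replicate 2 (0.0541) or Shh+ replicate 1 (0.0628). Gpc6 (chromosome 14 from 116924920 to 117979529), was at 1.71 and 2.08 FPKM in the Nfatc1+ libraries, against 0.35 and 0.45 FPKM in the Shh+ libraries. At this low level it was 4.70-fold higher in Nfatc1+ cells (log2 fold change 1.40, SE 0.12, adjusted p = 0.00221). Gpc5, next to Gpc6 on chromosome 14, was listed at 0 in 3 libraries and at 0.034 FPKM in Nfatc1+ replicate 2. Gpc4 and Gpc6, each other's closest relatives, were thus higher in Nfatc1+ cells, and Gpc1 and Gpc2, another such pair, were higher in Shh+ cells, as was Gpc3.

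The order of the glypicans also differed. In Nfatc1+ cells Gpc4 and Gpc3 were close, at 83.0 ± 3.49 and 79.5 ± 0.44 FPKM, with Gpc1 next at 53.0 ± 3.45 FPKM (SD, n = 2). In Shh+ cells Gpc3 led at 219 ± 5.69 FPKM, ahead of Gpc1 at 132.8 ± 2.98 FPKM and Gpc4 at 58.3 ± 2.63 FPKM. Gpc4 was 36.8% ± 1.38 of the family total in Nfatc1+ cells and 13.5% ± 0.39 in Shh+ cells, as the stacked bars show. Gpc3 and Gpc4 lie side by side on chromosome X, 107.5 kb apart with no coding gene between them, and were called in opposite directions. Hs6st2, described below, lies 369.3 kb beyond Gpc4 with 2 coding genes in the gap and was called in the direction of Gpc3.

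**Figure D4:**
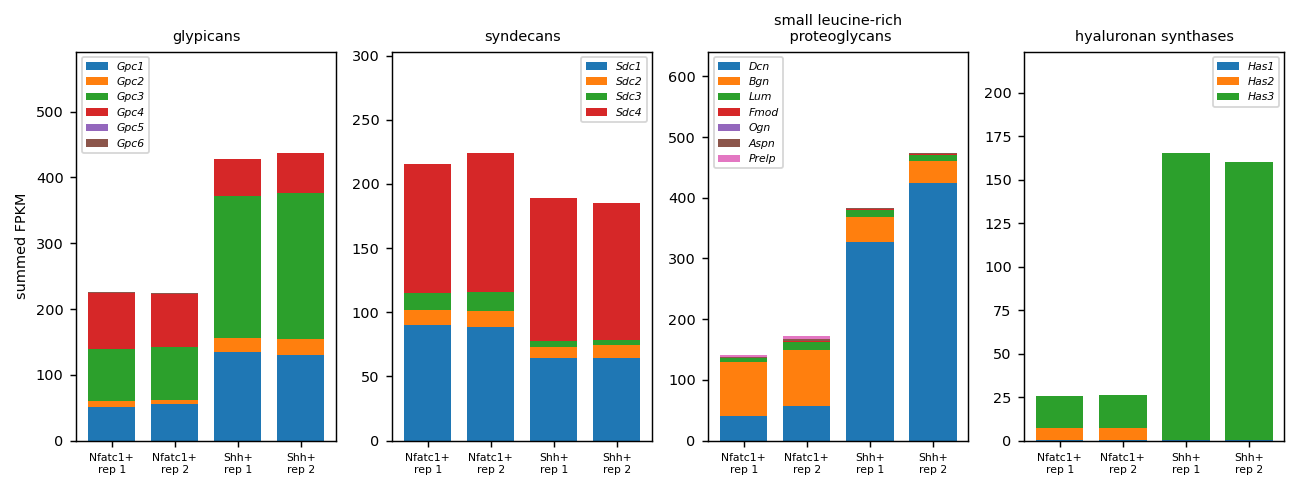
Summed FPKM of 4 families in each library, stacked by gene, with the Nfatc1+ libraries left of the Shh+ libraries and each panel on its own axis starting at 0. Glypicans, small leucine-rich proteoglycans and hyaluronan synthases have taller bars in Shh+ libraries, through Gpc3 and Gpc1, Dcn and Has3, and syndecans have slightly taller bars in Nfatc1+ libraries.

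Syndecans, the heparan sulfate carriers that cross the membrane, were higher in Nfatc1+ cells in 3 of 4 genes and in no gene higher in Shh+ cells. Of all tested genes, 16.6% and 14.9% were called in these directions. The syndecan sum was 220 ± 6.29 FPKM in Nfatc1+ cells, against 187 ± 2.81 FPKM in Shh+ cells (SD, n = 2). Sdc3, a syndecan first studied in nervous tissue (chromosome 4 from 130792537 to 130826318), differed most. It was at 13.3 and 14.9 FPKM in the Nfatc1+ libraries, against 4.55 and 4.38 FPKM in the Shh+ libraries. The 3.16-fold difference was well beyond the spread of the replicates (log2 fold change 1.56, SE 0.09, adjusted p = 0.000998). Sdc1, the main syndecan of stratified epithelium, was at 89.8 and 88.5 FPKM in the Nfatc1+ libraries, against 64.2 and 64.6 FPKM in the Shh+ libraries. Its log2 fold change was 0.47 (SE 0.07, adjusted p = 0.0120). Sdc2 was at 11.6 and 12.5 FPKM in the Nfatc1+ libraries, against 9.03 and 9.53 FPKM in the Shh+ libraries (log2 fold change 0.36, SE 0.08, adjusted p = 0.0341). With a library left out, the log2 fold changes stayed between 0.46 and 0.48 for Sdc1 and between 0.31 and 0.41 for Sdc2, but the calls were lost in these fits, in which 1 group has a single library and the other supplies the spread. Adjusted p was 0.0707, 0.0647, 0.0542 and 0.0514 for Sdc1 and 0.0980, 0.160, 0.122 and 0.0824 for Sdc2, without Nfatc1+ replicates 1 and 2 and Shh+ replicates 1 and 2 in turn. Sdc4, a focal adhesion syndecan, was the most abundant of the family, at 100.7 and 108.4 FPKM in the Nfatc1+ libraries, against 111.1 and 106.4 FPKM in the Shh+ libraries. The groups overlapped, and the 95% interval of its log2 fold change ran from −0.28 to 0.16 (adjusted p = 0.636).

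The heparan sulfate proteoglycans of basement membranes were among the highest members in both populations. Agrn (agrin) was at 196 and 203 FPKM in the Nfatc1+ libraries, against 192 and 179 FPKM in the Shh+ libraries (log2 fold change 0.11, 95% interval −0.11 to 0.32, adjusted p = 0.379). Hspg2 (perlecan) was at 85.7 and 94.5 FPKM in the Nfatc1+ libraries, against 73.7 and 65.5 FPKM in the Shh+ libraries. The 2 groups of libraries did not overlap for either gene, as for 70.7% of all tested genes, and neither was called. Hspg2 lay at the threshold (log2 fold change 0.37, adjusted p = 0.0559) and passed it with a pseudocount of 1 (0.0433), a filter at 1 FPKM (0.0476) or a mean-variance trend (0.0118).

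Core proteins with chondroitin sulfate were higher in Nfatc1+ cells in 2 of the 3 tested. In that direction 16.6% of all tested genes were called. Vcan (versican, chromosome 13 from 89655309 to 89743027), a large hyaluronan-binding proteoglycan of growing hair follicles, was at 57.0 and 56.1 FPKM in the Nfatc1+ libraries, against 21.3 and 25.9 FPKM in the Shh+ libraries. It was 2.39-fold higher in Nfatc1+ cells (log2 fold change 1.25, SE 0.12, adjusted p = 0.00308). Bcan (brevican, chromosome 3 from 87987531 to 88002175), known as a brain proteoglycan of the same hyaluronan-binding family, was at 8.40 and 9.34 FPKM in the Nfatc1+ libraries. In the Shh+ libraries it was listed at 0 in replicate 1 and at 0.059 FPKM in replicate 2. Among the members it had the largest log2 fold change (4.15, SE 0.10, adjusted p = 0.000386), whose size depends on the pseudocount and ran between 3.26 and 6.15 over the settings tried. No fold is given against a group with a library at 0. Cspg4 (NG2), a membrane-spanning core known from human basal keratinocytes and from pericytes, was at 35.3 and 36.7 FPKM in the Nfatc1+ libraries, against 35.8 and 27.8 FPKM in the Shh+ libraries, with overlapping groups (adjusted p = 0.365). Acan and Ncan, the aggrecan and neurocan genes of cartilage and brain, were at 0.042 FPKM or less in every library. Of the 4 hyaluronan-binding cores, Vcan was thus measured in both populations and Bcan in Nfatc1+ cells.

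Markers of Merkel cells, the touch cells of the skin epithelium, were mostly higher in Nfatc1+ cells, as Bcan was. Of 8 such markers, 7 were higher in Nfatc1+ and none in Shh+ cells, where 16.6% and 14.9% of all tested genes were called in these directions. Their summed level was 59.1 to 66.7 FPKM in Nfatc1+ libraries, against 23.9 to 29.1 FPKM in Shh+ libraries. Atoh1, Isl1 and Krt20 passed the filter on low values only through the Nfatc1+ libraries, as Bcan did. Atoh1, the defining factor, was at 6.28 and 7.31 FPKM in the Nfatc1+ libraries, against 0.24 and 0.23 FPKM in the Shh+ libraries. Melanocyte markers overlapped between the groups for all but 1 of 10 tested, Mitf, and summed to 32.2 to 67.3 FPKM in Nfatc1+ libraries, against 8.20 to 46.1 FPKM in Shh+ libraries. Mitf was at 9.74 and 12.3 FPKM in the Nfatc1+ libraries, against 0.86 and 1.29 FPKM in the Shh+ libraries (limma adjusted p = 0.00121). Between the Nfatc1+ replicates, at 8.40 and 9.34 FPKM of Bcan, the melanocyte markers differed by a median of 0.79 log2 units and the Merkel markers by 0.11. The part of Merkel cells or melanocytes in the Bcan value was not tested. Markers of nerve sheath cells were low and gave 1 call in 4, higher in Shh+ cells.

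Srgn encodes serglycin, the proteoglycan packed into the granules of mast and other blood cells. It was at 0.77 and 1.19 FPKM in the Nfatc1+ libraries, against 0.60 and 0.38 FPKM in the Shh+ libraries, and was not called (log2 fold change 0.57, adjusted p = 0.0811). Mast cell markers had 2 of 4 tested genes higher in Nfatc1+ and none in Shh+ cells, where 16.6% and 14.9% of all tested genes were called in these directions. Of the 2, Cpa3 lay at the threshold (limma adjusted p = 0.0499). Their list had a summed level of 16.9 to 20.7 FPKM in Nfatc1+ libraries, against 10.2 to 11.2 FPKM in Shh+ libraries. None of 8 tested markers of other blood cells was called, at summed levels of 7.84 to 14.3 FPKM in Nfatc1+ libraries, against 6.74 to 11.5 FPKM in Shh+ libraries, and Cd207 was listed at 0 in all 4. The part of mast and other blood cells in the Srgn values was not tested.

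Of the 8 enzymes that polymerize and sulfate heparan sulfate, 2 were called, both higher in Shh+ cells, a share near the 31.4% of all tested genes that were called in either direction. Ext1 and Ext2 encode the 2 subunits of the chain polymerase. Ext1 was at 33.9 and 39.4 FPKM in the Nfatc1+ libraries, against 28.8 and 33.4 FPKM in the Shh+ libraries, and Ext2 at 33.5 and 33.7 FPKM in the Nfatc1+ libraries, against 30.3 and 30.2 FPKM in the Shh+ libraries. Neither was called (adjusted p = 0.218 and 0.185). Extl3, which adds the first N-acetylglucosamine of the chain, was the exception of the 3. It was at 28.9 and 30.6 FPKM in the Nfatc1+ libraries, against 54.1 and 52.7 FPKM in the Shh+ libraries. The 1.79-fold difference was called (log2 fold change −0.83, SE 0.08, adjusted p = 0.00303), though it does not reach 2-fold. In Nfatc1+ cells the 3 genes were at like levels, whereas in Shh+ cells Extl3 was 46.6% ± 1.77 of their sum, compared with 29.8% ± 0.37 of it in Nfatc1+ cells (SD, n = 2).

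Of 5 sulfotransferases, 4 were not called, where 31.4% of all tested genes were called. Ndst1, which removes acetyl groups and adds N-sulfate, was at 39.4 and 42.9 FPKM in the Nfatc1+ libraries, against 41.5 and 40.6 FPKM in the Shh+ libraries, and the 95% interval of its log2 fold change ran from −0.22 to 0.22. Hs2st1, which sulfates uronic acid, was between 16.6 and 18.6 FPKM in all 4 libraries, with an interval from −0.24 to 0.25. Ndst2 averaged 14.0 ± 1.25 FPKM in Nfatc1+ cells, against 16.6 ± 0.42 FPKM in Shh+ cells (adjusted p = 0.123). Hs6st1, the abundant glucosamine sulfotransferase, averaged 39.5 ± 2.43 FPKM in Nfatc1+ cells, against 47.4 ± 2.78 FPKM in Shh+ cells (adjusted p = 0.1004, or 0.0346 with a mean-variance trend). Its paralog Hs6st2 (chromosome X from 51386637 to 51681705) was the sulfotransferase that was called. It was at 0.31 and 0.26 FPKM in the Nfatc1+ libraries, against 1.30 and 1.30 FPKM in the Shh+ libraries, 4.53-fold higher in Shh+ cells (log2 fold change −1.19, SE 0.08, adjusted p = 0.00132). With a filter at 1 FPKM it was not tested. It made up 0.26% ± 0.044 of the summed FPKM of the 5 genes in Nfatc1+ cells and 1.05% ± 0.023 in Shh+ cells (SD, n = 2).

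The endosulfatases cut sulfate from finished heparan sulfate outside the cell, and are known in quail and mouse to change Wnt and FGF signals. Sulf2 was at 72.0 and 73.6 FPKM in the Nfatc1+ libraries, against 40.3 and 32.7 FPKM in the Shh+ libraries. Both Nfatc1+ libraries were above both Shh+ libraries, and the difference of 1.996-fold was called just short of 2-fold (log2 fold change 0.99, SE 0.12, adjusted p = 0.00651). Sulf1, whose product acts on the same sulfate groups, was at 0.29 and 0.54 FPKM in the Nfatc1+ libraries, against 0.73 and 0.79 FPKM in the Shh+ libraries. It was not called (adjusted p = 0.0820), but was without Nfatc1+ replicate 2 (0.0333). Sulf2 was 99.4% ± 0.23 of the summed FPKM of the pair in Nfatc1+ cells and 97.9% ± 0.41 in Shh+ cells (SD, n = 2).

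Has2 and Has3, which make the same chain at the plasma membrane, differed in opposite directions, with a median absolute log2 fold change of 3.13 for the pair. Has3 (chromosome 8 from 106870242 to 106882902) was at 18.3 and 18.7 FPKM in the Nfatc1+ libraries, against 165 and 159.5 FPKM in the Shh+ libraries. It was 8.77-fold higher in Shh+ cells (log2 fold change −3.10, SE 0.07, adjusted p = 0.000386). Of its exonic bases 5.52% overlap Chtf8 on the other strand, which was at 77.9 and 81.2 FPKM in the Nfatc1+ libraries, against 108 and 94.5 FPKM in the Shh+ libraries. Has2 (chromosome 15 from 56665627 to 56694546), the synthase that mouse embryos require for heart development, was at 6.87 and 7.16 FPKM in the Nfatc1+ libraries, against 0.39 and 0.29 FPKM in the Shh+ libraries. It was 20.7-fold higher in Nfatc1+ cells (log2 fold change 3.16, SE 0.09, adjusted p = 0.000386). The part of fibroblast RNA in the Has2 value was not tested. Has1 was at 0.13 and 0.048 FPKM in the Nfatc1+ libraries, against 0.096 and 0.155 FPKM in the Shh+ libraries, too low to be tested. The summed level of the 3 genes was 25.6 ± 0.42 FPKM in Nfatc1+ cells, against 163 ± 3.89 FPKM in Shh+ cells, and Has2 was 27.4% ± 0.37 of it in Nfatc1+ cells and 0.21% ± 0.036 in Shh+ cells (SD, n = 2).

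The remaining genes of these pathways were described from 106 further symbols in 6 lists, all of which had a row. Of these, 68 passed the filter on low values, 22 were higher in Nfatc1+ cells, 12 were higher in Shh+ cells and 34 were not called, where 16.6% and 14.9% of all tested genes were called in these directions. With 6 to 17 genes tested in a list, several of the counts given per list lie near those shares. The median log2 fold change was 0.17, as it was for the members. Without Nfatc1+ replicates 1 and 2 and Shh+ replicates 1 and 2 in turn, 11, 14, 14 and 13 were higher in Nfatc1+ cells, and without Shh+ replicate 2 only 7 were higher in Shh+ cells. The supply of precursors and the linker that joins chain to core had 6 of 17 genes higher in Nfatc1+ cells and 1 in Shh+ cells. Ugp2, which makes UDP-glucose, averaged 36.4 ± 2.40 FPKM in Nfatc1+ cells, against 16.8 ± 0.0062 FPKM in Shh+ cells. Slc35d1, an ER transporter of nucleotide sugars used for chondroitin sulfate, averaged 6.56 ± 1.06 FPKM in Nfatc1+ cells, against 15.0 ± 0.039 FPKM in Shh+ cells.

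Among other core proteins, 2 of 10 tested were higher in Nfatc1+ cells and 5 in Shh+ cells. Spock1 (testican) was at 2.63 and 2.87 FPKM in the Nfatc1+ libraries, against 0.78 and 0.56 FPKM in the Shh+ libraries, and Tsku, a secreted leucine-rich protein known to bind BMPs in chick, at 10.2 and 11.7 FPKM in the Nfatc1+ libraries, against 29.4 and 26.6 FPKM in the Shh+ libraries. Other heparan sulfate enzymes had 1 of 6 tested genes higher in Nfatc1+ cells and 2 in Shh+ cells. Hs3st3a1, a glucosamine sulfotransferase of the final steps of the pathway, was at 0.43 and 0.44 FPKM in the Nfatc1+ libraries, against 2.73 and 3.41 FPKM in the Shh+ libraries (7.004-fold, adjusted p = 0.00108). It passed the filter on low values only through the Shh+ libraries. The enzymes of chondroitin and dermatan sulfate had 4 of 13 higher in Nfatc1+ cells and 2 in Shh+ cells. Chst3 averaged 2.53 ± 0.15 FPKM in Nfatc1+ cells, against 0.57 ± 0.16 FPKM in Shh+ cells, and Chst15 averaged 10.0 ± 0.28 FPKM in Nfatc1+ cells, against 20.1 ± 1.07 FPKM in Shh+ cells. Both transfer sulfate to chondroitin.

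Genes that bind or break down hyaluronan had 4 of 10 tested higher in Nfatc1+ cells and 2 in Shh+ cells. The hyaluronan receptor gene Cd44, listed among core proteins too, was at 186 and 181 FPKM in the Nfatc1+ libraries, against 26.6 and 28.7 FPKM in the Shh+ libraries. The population with the lower sum of hyaluronan synthase mRNA thus had more of the receptor mRNA. That sum is mostly Has3, and Has2 was higher in Nfatc1+ cells, as Cd44 was. Cemip, needed by human skin fibroblasts to depolymerize hyaluronan, was at 0.43 and 0.59 FPKM in the Nfatc1+ libraries, against 1.95 and 2.24 FPKM in the Shh+ libraries. Itih5, of a family of hyaluronan-binding heavy chains, averaged 3.96 ± 1.04 FPKM in Nfatc1+ cells, against 1.44 ± 0.17 FPKM in Shh+ cells (adjusted p = 0.0124, and 0.0640 without Shh+ replicate 1). Of 13 lysosomal enzymes and carriers that break these chains down, 6 were higher in Nfatc1+ and none in Shh+ cells. The β-glucuronidase gene Gusb averaged 8.62 ± 0.11 FPKM in Nfatc1+ cells, against 3.76 ± 0.061 FPKM in Shh+ cells, and the sulfatase gene Arsb averaged 3.52 ± 0.72 FPKM in Nfatc1+ cells, against 1.47 ± 0.15 FPKM in Shh+ cells (adjusted p = 0.0105, and 0.0548 without Shh+ replicate 2). The plot of the lists shows that all but the lysosomal list had called genes on both sides of 0.

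**Figure D5:**
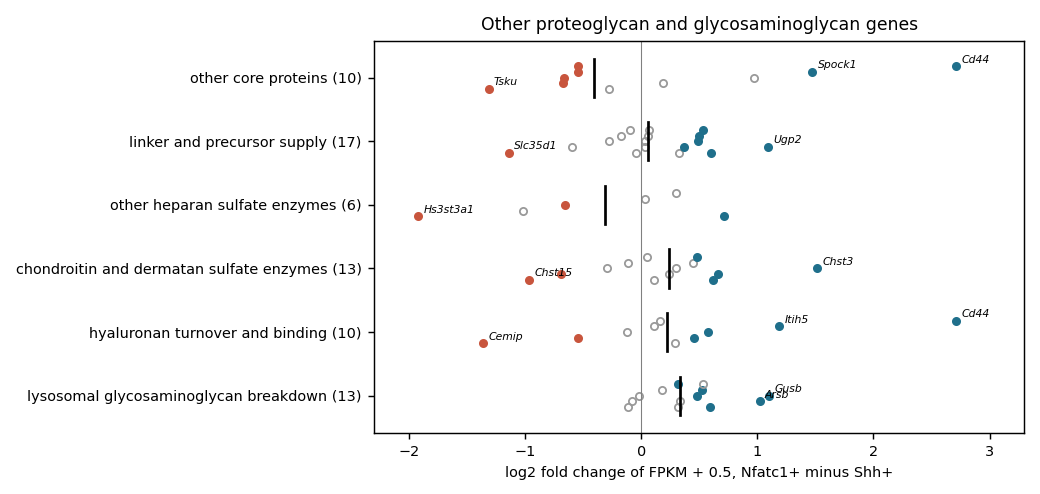
Log2 fold change of FPKM + 0.5, Nfatc1+ minus Shh+, of the other pathway genes that were tested, 1 row per list with the number tested in brackets. Filled points were called (blue, higher in Nfatc1+; red, higher in Shh+), open points were not, the short line is the list's median, and names mark called genes at least 2-fold apart. Cd44, which stands in both the core protein and the hyaluronan list, is farthest to the right and Hs3st3a1 farthest to the left.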

How the data were processed

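RNA of sorted cells was sequenced paired-end on an Illumina HiSeq instrument. The authors aligned the reads to GRCm38 (mm10) with TopHat 2.0.13 and deposited FPKM. The processing record names both HTSeq, without a version, and Cufflinks 2.2.1. Strandedness is not given in the sources used here, so antisense overlaps were counted from GENCODE exons. FPKM are not counts, so limma 3.58.1 (R 4.3.3) was run on log2(FPKM + 0.5) of the 12750 genes that averaged 0.5 FPKM or more, with group as the only term, 1 prior variance and Benjamini-Hochberg adjustment over all of them. The fit was tested on simulated data. Members at least 2-fold apart and called are given with every library, and the other members by values or ranges. Other pathway genes are named when called and at least 2-fold apart. Members and lists, including the markers (epithelial, fibroblast, dermal papilla, melanocyte, blood, mast, endothelial, smooth muscle, Merkel, nerve sheath, and immediate early and stress), were chosen with earlier results of these data known. The alternatives tried were the pseudocount, the filter, 2 scalings, a variance trend, a replicate block, the p and fold rule of the study's methods, and leaving out each library. Gene positions and promoter windows are from RefSeq (GRCm38.p6).

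Dermal papilla markers had 1 of 5 tested genes higher in Nfatc1+ cells and 2 in Shh+ cells. Of the marker lists not used beside a member, endothelial markers had 1 of 6 and smooth muscle markers 1 of 2 higher in Shh+ cells. Epithelial markers had 3 of 7 higher in Nfatc1+ cells and 1 in Shh+ cells.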

Additional observations from a re-analysis of the deposited data

How the results depend on the processing

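All 18 members called were called again with other pseudocounts (0.1 and 1), no filter, either scaling, a mean-variance trend or a replicate block; a filter at 1 FPKM removed Hs6st2. With the rule of the study's methods (p under 0.01 before adjustment, and a log2 fold change of FPKM + 0.5 beyond 2-fold), 1311 genes were called in all against 4009, the members higher in Nfatc1+ cells were 7, the pathway genes higher in Nfatc1+ cells were 7 and those higher in Shh+ cells were 4; Gpc4, Sdc1, Sdc2, Extl3 and Sulf2 among the members and Chst15 (2.002-fold in mean FPKM, −0.97 on the log2 scale) among the pathway genes then dropped out. Leaving out a library gave 2307 to 2576 called genes, 11 to 14 pathway genes higher in Nfatc1+ cells and 7 to 9 higher in Shh+ cells. Directions turned only in members that were not called: Hs2st1 was at −0.0087 with upper-quartile scaling and Ndst1 at 0.0015 with median-ratio scaling, and with a library left out the log2 fold changes ran from −0.78 to 0.21 for Lum, −0.25 to 0.38 for Fmod, −0.10 to 0.70 for Ogn, −0.061 to 0.061 for Ndst1 and −0.076 to 0.086 for Hs2st1. The cause was not tested. The pairing of equal replicate numbers could not be shown: 2 pairs, with a correlation of their deviations of 0.11, share only a number. A replicate block gave 3699 genes, 12 members higher in Nfatc1+ cells (Aspn in addition) and 7 higher in Shh+ cells, and 24 and 12 pathway genes. Low values, most of all in the shallower Shh+ replicate 2, limit what Gpc6, Hs6st2, Has2 and Bcan show, and 2 libraries a group limit all tests.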

Other observations

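Dermatan sulfate is chondroitin sulfate in which part of the glucuronic acid is turned into iduronic acid, and it is the chain that decorin and biglycan carry in skin. The genes of the steps that make and fix this change were picked out after their values were seen. Dse, an epimerase, averaged 14.6 ± 0.25 FPKM in Nfatc1+ cells, against 9.04 ± 0.27 FPKM in Shh+ cells (limma adjusted p = 0.00511). Dsel, the other epimerase gene, was at 10.2 ± 1.00 FPKM in Nfatc1+ cells, against 7.39 ± 0.95 FPKM in Shh+ cells, and was not called (adjusted p = 0.0585). Chst14, the sulfotransferase that acts on the product, averaged 15.8 ± 0.42 FPKM in Nfatc1+ cells, against 10.2 ± 0.12 FPKM in Shh+ cells (adjusted p = 0.0062; SD, n = 2). Chst11, the sulfotransferase of unepimerized chondroitin, was at 19.8 ± 0.52 FPKM in Nfatc1+ cells, against 32.3 ± 2.16 FPKM in Shh+ cells (adjusted p = 0.00665). The other sulfotransferase genes of the chondroitin and dermatan list did not share a direction. Chst3 was higher in Nfatc1+ cells (2.53 against 0.57 FPKM) and Chst15 in Shh+ cells (20.1 against 10.0 FPKM). Chst12 and Ust were not called (limma adjusted p = 0.229 and 0.603), and Chst7 and Chst13 were too low to be tested. In heparan sulfate, the corresponding epimerase gene Glce was also higher in Nfatc1+ cells, at 29.6 ± 0.63 FPKM, against 17.9 ± 0.53 FPKM in Shh+ cells (adjusted p = 0.0043). Hs3st3b1, a paralog of Hs3st3a1, was at 11.5 ± 1.07 FPKM in Nfatc1+ cells, against 18.5 ± 1.43 FPKM in Shh+ cells (adjusted p = 0.0137), the same side as Hs3st3a1.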
